A study of Homo sapiens with 12 samples.

Results

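The 39 genes described here act in the passage from G1 to S phase and in the copying of DNA itself. They were given by name as genes of these roles, and matched by symbol to the Ensembl identifiers of the expression table. All 39 were found among its 62703 identifiers, and all 39 were among the 14639 genes tested. They fall into 10 roles, from the G1/S regulators and the factors that license origins to the helicase, the polymerases, the clamp and its loader, and the enzymes that supply deoxynucleotides.

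As background, a dividing cell prepares its origins in G1, when ORC, CDC6 and CDT1 load the ring of MCM2 to MCM7 onto DNA. Cyclin E with its kinase partner and the E2F transcription factors then drive entry into S phase, the helicase is activated by CDC45 and the GINS complex, and polymerases copy both strands with the PCNA clamp holding them in place. In the kidney, proximal tubule cells rarely divide at rest and enter the cycle after injury, whereas a tubule cell line in culture divides continuously.

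RNA was sequenced from HK2 cells, a human proximal tubule line immortalised with papillomavirus oncogenes, so that all groups come from 1 cell line. The 12 libraries form 4 groups of 3. NG cells carried a control vector in 5.5 mM glucose, HG cells were in 50 mM glucose, si-FGF9 cells were transfected with an siRNA against FGF9 in normal glucose, and HG+OE-FGF9 cells carried a vector expressing FGF9 in 50 mM glucose. The paper describes no non-targeting siRNA, so that an effect of transfection and that of the siRNA cannot be told apart in si-FGF9 versus NG. It names a control vector for NG and none for HG. In HG versus NG an effect of the vector therefore cannot be told apart from that of glucose. The same holds for the vector and FGF9 in HG+OE-FGF9 versus HG. The paper's methods describe the NG medium without mannitol and its results with mannitol, so that whether osmolarity was matched is not known. It also describes the type of viral vector differently in different places. Expression is given as TPM, a share of the transcripts of a library corrected for length, so that the levels of different genes can be compared but the depth behind them is unknown. Nothing in the sources used here says that the 3 libraries of a group came from separate cultures, and p-values then measure only the spread between these libraries.

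The promoters of 33 of the 39 genes were found in RefSeq, as 42 windows of 250 bases before a gene start (build GRCh38.p14), since several genes have more than 1 start. The windows were searched on both strands for the letters TTTCCCGC, TTTCGCGC, TTTGCCGC and TTTGGCGC, which are forms of the motif bound by E2F factors, the class of activator that E2F1 belongs to. At least 1 match lay in 14 of the 42 windows (33.3%), against 2.8% of the 35116 windows of all RefSeq genes, and 13 of the 33 genes had one. The letters CCAAT were found in 64.3% of the members' windows and 32.0% of all windows, and the letters GGGCGG in 76.2% and 42.6%, and matches of different motifs may overlap. The 120 bases before the start are shown for genes on which the results turn, with E2F letters in capitals.
E2F1 (chr20:33686386-33686505, minus strand): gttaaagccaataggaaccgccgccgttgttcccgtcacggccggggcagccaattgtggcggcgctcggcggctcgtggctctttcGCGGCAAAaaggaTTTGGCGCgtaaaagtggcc
CDT1 (chr16:88803669-88803788, plus strand): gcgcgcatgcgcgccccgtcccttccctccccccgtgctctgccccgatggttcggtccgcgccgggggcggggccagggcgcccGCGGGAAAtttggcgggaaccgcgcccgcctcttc
POLD1 (chr19:50384203-50384322, plus strand, the first of its 2 starts): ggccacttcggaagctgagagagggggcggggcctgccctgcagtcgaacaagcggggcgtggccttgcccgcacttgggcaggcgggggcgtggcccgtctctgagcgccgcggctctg
MCM6 (chr2:135876444-135876563, minus strand): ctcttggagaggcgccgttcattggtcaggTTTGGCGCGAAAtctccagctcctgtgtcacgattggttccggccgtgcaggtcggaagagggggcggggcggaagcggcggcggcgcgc
PCNA (chr20:5126623-5126742, minus strand, the first of its 2 starts): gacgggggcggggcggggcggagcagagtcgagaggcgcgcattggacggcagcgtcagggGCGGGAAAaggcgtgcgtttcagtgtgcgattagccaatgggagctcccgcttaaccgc
RPA1 (chr17:1829885-1830004, plus strand): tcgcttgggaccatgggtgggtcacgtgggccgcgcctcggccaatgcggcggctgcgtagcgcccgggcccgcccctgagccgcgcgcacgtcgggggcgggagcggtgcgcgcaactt
RFC1 (chr4:39366363-39366482, minus strand): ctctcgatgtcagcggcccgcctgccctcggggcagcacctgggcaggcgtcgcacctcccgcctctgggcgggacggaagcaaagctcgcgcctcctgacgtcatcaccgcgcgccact
The matches begin 33 and 20 bases before the start of E2F1, 35 before that of CDT1, 90 and 86 before that of MCM6, where they overlap, and 59 before that of PCNA. The stretches of POLD1, RPA1 and RFC1 hold none of these letters. As the values below show, the genes with a match include both E2F1, which was higher in si-FGF9 than in NG, and MCM6 and PCNA, which were lower. Of the 19 genes with a window that were lower in si-FGF9, 7 had a match, as did 1 of the 2 that were higher and 5 of the 12 that passed neither way.

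The libraries set limits on what follows. The summed TPM of the 39 genes was 1212 to 1345 in NG, 1129 to 1346 in HG and 772 to 846 in si-FGF9. In HG+OE-FGF9 it was 1015, 1022 and 1509. Replicate 3 of HG+OE-FGF9 stood apart, with 36 of the 39 genes higher than in the other two libraries of its group, where 67.2% of all genes tested were also highest. HG replicate 3 was nearer to NG than the other HG libraries were for RRM2, SLBP, MCM5 and GINS2, among others. FGF9 itself is listed at 0 in every library of NG, HG and si-FGF9, and at 3.34 to 4.03 TPM in HG+OE-FGF9. The siRNA therefore could not be checked by its target in these libraries. By RT-qPCR the paper gives a lower mean of FGF9 mRNA for HG and si-FGF9 than for NG. For si-FGF9 that difference did not reach the paper's significance level. The keratins KRT8, KRT18 and KRT19 were at 211 to 678 TPM, whereas 8 of 12 markers of the proximal tubule were not tested for low values, and LRP2 and CUBN did not exceed 0.02 TPM. Of the other 4, GGT1 was at 71.7 to 83.8 TPM in NG and higher in si-FGF9, at 1.23 and at 1.15 after removal of the trend with GC content described below, and PAX8 was at 78.1 to 79.1 in NG and lower in HG+OE-FGF9, at -1.31 versus HG and -1.60 versus NG. Of 9 markers of fibroblasts, endothelium and leukocytes, 7 were not tested for low values, and PECAM1, VWF, CDH5 and PTPRC did not exceed 0.1 TPM. The other 2 were CD68, a lysosomal protein used as a macrophage marker, at 108 to 159 TPM in the 12 libraries, and the collagen gene COL1A1, at 4.35 to 7.81 TPM in NG and lower in HG, si-FGF9 and HG+OE-FGF9 than in NG, at -1.03, -1.15 and -1.22. The part of these markers in the results was not tested. Of 10 genes of G2 and mitosis, 8 were lower and 0 higher in si-FGF9 than in NG in limma, where 42.2% and 5.36% of all genes tested were, and 2 lower and 0 higher in HG, where 22.7% and 1.65% were. In HG+OE-FGF9 versus HG 0 passed in either direction in limma. After removal of the GC trend 3 were lower and 1 higher in si-FGF9, where 12% and 12.3% of all genes were, 0 passed in HG, and 1, the kinetochore gene CENPF, was lower in HG+OE-FGF9 versus HG, where 2.18% were. In bulk RNA, fewer cells in S phase and less of these transcripts in each cell cannot be told apart.

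A gene was counted as changed when its log2 fold change on the scale of log2(TPM + 1) was at least 1 in either direction with an unadjusted p under 0.01 in limma, the threshold used by the study, and each p given below was adjusted by the Benjamini-Hochberg method over all genes tested. In si-FGF9 versus NG, 20 of the 39 genes were lower and 2 higher, where 42.2% and 5.36% of all genes tested were. The clamp loader subunit RFC1, the single-strand binding subunit RPA1, cyclin E2 (CCNE2) and RFC3 had the lowest values, and the polymerase subunit POLD1 and the activator E2F1 were higher. In HG versus NG, RFC1 and CCNE2 were lower and MCM5, POLD1 and E2F1 higher, where 22.7% of all genes were lower and 1.65% higher. In HG+OE-FGF9 versus HG, 0 of the 39 genes passed in either direction, also with any 1 library left out, where 2.67% of all genes were lower and 2.94% higher. At an unadjusted p under 0.05 alone, MCM4 was lower and CDC45, RPA3 and E2F1 were higher in that comparison, which is 1 and 3 of the 39 genes where 16.9% and 11.3% of all genes passed.

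The median log2 fold change of the 39 genes was -0.23 in HG versus NG, -1.02 in si-FGF9 versus NG and -0.07 in HG+OE-FGF9 versus HG, beside -0.39, -0.79 and -0.13 over all genes tested. TPM of a library have a fixed sum, and the shift of all genes depends on how libraries are scaled. After scaling by the median of ratios, which brings the median of all genes to 0.00 in the HG comparison and -0.01 in the si-FGF9 comparison, 4 of the 39 genes were lower and 9 higher in si-FGF9, where 17.8% and 18.9% of all genes were, and 2 were lower and 6 higher in HG, where 8.47% and 7.26% were. The members' median was then -0.07 in si-FGF9 versus NG and 0.26 in HG versus NG. The direction of the members' median in HG thus turned with the scale and its size in si-FGF9 shrank, and the differences among the members are described below.

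**Figure D1:**
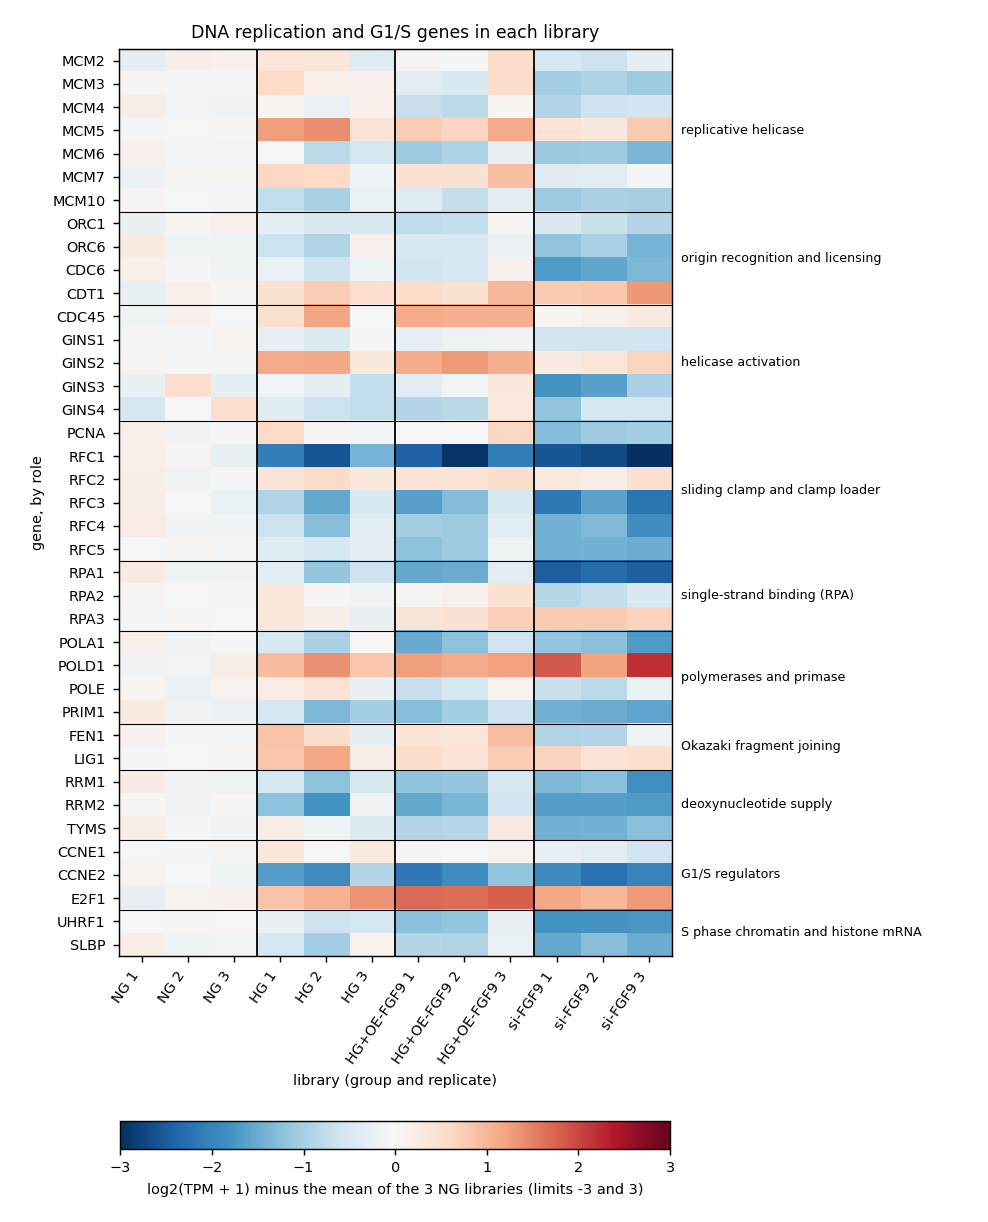
Each row is one of the 39 genes, ordered by role, and each column one of the 12 libraries. The colour is log2(TPM + 1) minus the mean of the 3 NG libraries, with blue below and red above it. RFC1 and CCNE2 are blue and E2F1 and POLD1 red in every library outside NG, HG+OE-FGF9 replicate 3 is paler than its group for most of the blue genes, and the blue fields of this scale become fewer after scaling by the median of ratios.

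**Figure D2:**
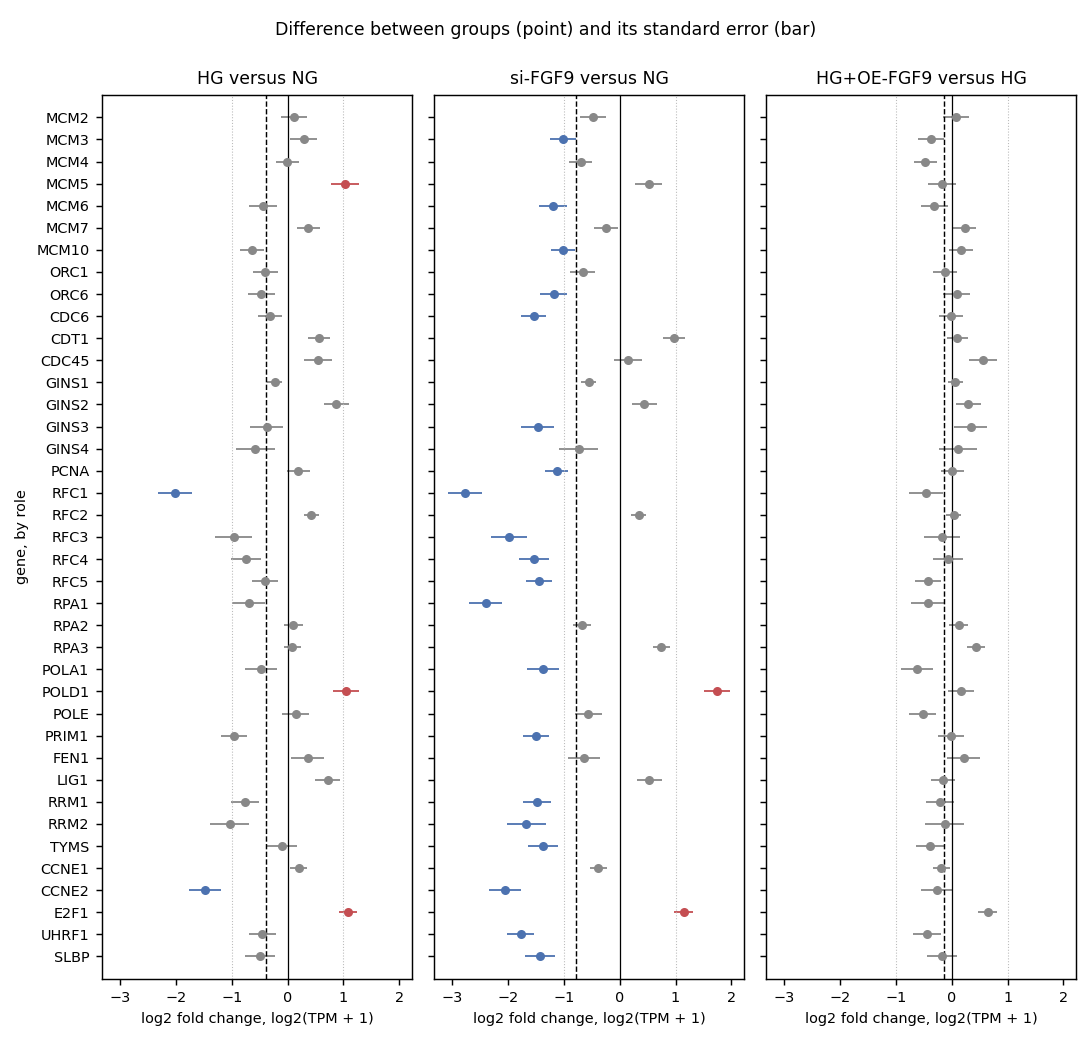
Log2 fold change of each gene on the log2(TPM + 1) scale (point) with its standard error (bar) in the 3 comparisons of the study, each 3 libraries against 3. Blue points are lower and red points higher by the threshold, grey points passed neither way, the dashed line is the median of all genes tested and dotted lines mark a log2 fold change of -1 and 1. In si-FGF9 versus NG the 3 genes of deoxynucleotide supply, UHRF1 and SLBP lie below the dashed line and FEN1 and LIG1 above it, and all points are grey in HG+OE-FGF9 versus HG.

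Of the 3 G1/S regulators, E2F1 (ENSG00000101412), which activates transcription of genes for S phase, had its lowest values in NG and its highest in HG+OE-FGF9. Its TPM was 8.99, 11.7 and 12.03 for NG, 20.4, 23.2 and 29.3 for HG, 25.5, 22.8 and 27.6 for si-FGF9 and 37.4, 36.99 and 40.2 for HG+OE-FGF9. The NG values lay below all others, the HG+OE-FGF9 values above all others, and those of HG and si-FGF9 overlapped. The log2 fold change was 1.08 (SE 0.17, adjusted p = 0.00099) in HG versus NG and 1.15 (SE 0.17, adjusted p = 8.06e-05) in si-FGF9 versus NG. In HG+OE-FGF9 versus HG it was 0.65 (SE 0.17, adjusted p = 0.0337), which is under the fold required. In HG versus NG it falls under the fold without NG replicate 1 (0.96) or HG replicate 3 (0.94). After removal of the GC trend E2F1 did not pass in HG, at 0.84, and passed in si-FGF9, at 1.02. Its GC content is 62.5%.

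CCNE2 and CCNE1 encode the E-type cyclins, which activate CDK2 at the start of S phase. CCNE2 TPM was 4.89, 4.49 and 3.98 for NG, 0.72, 0.46 and 1.98 for HG, 0.45, 0.15 and 0.36 for si-FGF9 and 0.24, 0.46 and 1.41 for HG+OE-FGF9. The NG libraries were above all the others, and the log2 fold change was -1.48 (SE 0.29, adjusted p = 0.00217) in HG and -2.05 (SE 0.29, adjusted p = 6.19e-05) in si-FGF9 versus NG. CCNE1 TPM was 16.02, 15.6 and 17.1 for NG, 20.7, 16.4 and 19.8 for HG, 13.5, 12.8 and 10.6 for si-FGF9 and 15.6, 16.4 and 17.5 for HG+OE-FGF9, and it passed in none of the 3 comparisons. Within each library the TPM of CCNE2 divided by that of CCNE1, a ratio that does not depend on the scale of the library but does on its trend with GC content, was 0.233 to 0.305 for NG, 0.0281 to 0.1 for HG, 0.0117 to 0.0341 for si-FGF9 and 0.0154 to 0.0808 for HG+OE-FGF9. After removal of the GC trend CCNE2 did not pass, at -0.35 in HG and -0.40 in si-FGF9, and the difference between the log2 fold changes of CCNE2 and CCNE1 in si-FGF9 went from -1.67 to -0.50. Exons of CCNE2 share 37.0% of their bases with INTS8 on the opposite strand, and whether the reads were assigned by strand is not given in the sources used here.

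Of the 4 factors of origin licensing, CDC6 and ORC6 were lower in si-FGF9 than in NG, and CDT1 and ORC1 passed in neither direction. CDC6, which helps to load the MCM ring, had TPM of 15.4, 13.5 and 12.8 for NG, 12.03, 8.7 and 12.6 for HG, 3.59, 4.01 and 4.8 for si-FGF9 and 8.93, 9.36 and 15.2 for HG+OE-FGF9. The si-FGF9 values were below those of every other library, with a log2 fold change of -1.54 (SE 0.22, adjusted p = 6.37e-05) from NG. The origin recognition subunit ORC6 was also lower in si-FGF9, at -1.18 (SE 0.24, adjusted p = 0.000929). CDT1, the partner of CDC6 in loading, had TPM of 12.7, 16.96 and 15.8 for NG, 20.9, 25.7 and 21.6 for HG, 26.8, 27.3 and 38.2 for si-FGF9 and 22.5, 21.1 and 30.6 for HG+OE-FGF9. All libraries outside NG were above the NG values, and its log2 fold change in si-FGF9 was 0.97 (SE 0.20, adjusted p = 0.000807), just under the fold required. After removal of the GC trend CDC6, ORC6 and CDT1 were at -0.56, -0.38 and 0.67 in si-FGF9 and did not pass. Their GC contents are 45.5%, 47.5% and 64.9%. After scaling by the median of ratios CDT1 passed as higher, at 1.95, and CDC6 and ORC6 did not pass, at -0.63 and -0.19. ORC1, the subunit of the origin recognition complex with its main ATPase, had TPM of 3.55, 4.55 and 4.88 for NG, 3.36, 2.85 and 2.86 for HG, 2.87, 2.34 and 1.9 for si-FGF9 and 2.12, 2.15 and 4.12 for HG+OE-FGF9 and passed in none of the 3 comparisons.

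The MCM2 to MCM7 proteins form 1 ring, the replicative helicase, but MCM5 passed as higher in HG, MCM3 and MCM6 as lower in si-FGF9, and the other 3 in neither. MCM5 had TPM of 12.6, 12.8 and 13.6 for NG, 32.6, 35.96 and 17.7 for HG, 17.97, 16.4 and 23.2 for si-FGF9 and 22.8, 20.9 and 29.7 for HG+OE-FGF9. Every library outside NG was above the NG values, and the log2 fold change in HG was 1.03 (SE 0.24, adjusted p = 0.00531), which falls to 0.91 without HG replicate 1 and to 0.84 without HG replicate 2. In si-FGF9 it was 0.52 (SE 0.24, adjusted p = 0.0788). MCM6 had TPM of 20.2, 17.1 and 16.8 for NG, 18.2, 9.91 and 12.2 for HG, 7.73, 8.02 and 6.29 for si-FGF9 and 8.04, 9.05 and 15.1 for HG+OE-FGF9, with a log2 fold change of -1.19 (SE 0.25, adjusted p = 0.00104) in si-FGF9, whose libraries were all below those of NG, and of 0.07 there after removal of the trend with GC content described below. MCM3 and MCM10, a factor needed to activate the helicase, were also lower in si-FGF9, at -1.02 and -1.02, and each misses the threshold without 1 of 2 libraries, MCM3 without NG replicate 1 or si-FGF9 replicate 3 and MCM10 without NG replicate 1 or si-FGF9 replicate 1. The value of MCM10 also turns to 0.22 after removal of the GC trend.

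MCM2, MCM4 and MCM7 passed in none of the 3 comparisons. MCM2 TPM was 18.7, 25.9 and 24.99 for NG, 30.0, 29.1 and 17.5 for HG, 15.6, 14.3 and 18.8 for si-FGF9 and 24.2, 22.5 and 33.3 for HG+OE-FGF9. MCM4 TPM was 58.6, 48.5 and 47.9 for NG, 52.7, 44.6 and 56.9 for HG, 27.4, 33.1 and 34.2 for si-FGF9 and 31.7, 29.6 and 52.4 for HG+OE-FGF9. The si-FGF9 values of MCM4 were below all those of NG and HG, at a log2 fold change of -0.69 (SE 0.21, adjusted p = 0.00975) from NG that is under the fold required and turns to 0.04 after removal of the GC trend. MCM7 TPM was 50.6, 60.6 and 60.0 for NG, 88.4, 87.2 and 52.5 for HG, 43.8, 45.4 and 55.3 for si-FGF9 and 78.3, 78.5 and 108 for HG+OE-FGF9. The ratio of 2 of these transcripts within a library does not depend on the library's scale, but depends on its GC trend where their GC contents differ. The ratio of MCM6 to MCM5 was 1.61, 1.34 and 1.24 for NG, 0.558, 0.276 and 0.693 for HG, 0.43, 0.489 and 0.271 for si-FGF9 and 0.352, 0.433 and 0.507 for HG+OE-FGF9, so that NG did not overlap the other groups. These transcripts have a GC content of 43.1% and 57.0%, and the difference between their log2 fold changes in si-FGF9 went from -1.71 to -0.68 after removal of the GC trend. These 2 genes, and the other pairs given as ratios, were chosen after their values were seen, and the ratios carry no test.

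CDC45 and the GINS complex turn the loaded ring into an active helicase. GINS2 had TPM of 6.46, 5.87 and 5.91 for NG, 14.6, 14.7 and 7.81 for HG, 7.52, 8.1 and 10.3 for si-FGF9 and 14.4, 16.3 and 13.9 for HG+OE-FGF9. It was higher than NG in all 9 other libraries, at a log2 fold change of 0.87 (SE 0.22, adjusted p = 0.0077) in HG, under the fold required, and of 0.44 (SE 0.22, adjusted p = 0.1) in si-FGF9. CDC45 had TPM of 5.19, 6.44 and 5.86 for NG, 8.35, 14.5 and 5.77 for HG, 5.94, 6.42 and 7.23 for si-FGF9 and 13.8, 13.6 and 13.4 for HG+OE-FGF9, and the HG values overlapped those of NG through HG replicate 3. GINS3 had TPM of 5.69, 10.2 and 5.46 for NG, 6.43, 5.37 and 3.71 for HG, 1.27, 1.54 and 3 for si-FGF9 and 5.17, 6.44 and 8.77 for HG+OE-FGF9, and was lower in si-FGF9, at -1.46 (SE 0.30, adjusted p = 0.000815). GINS3 passed in none of the 4 rescalings described below, at -0.67 to -0.13. GINS1 was at 25.7 to 28.9 TPM for NG, 19.9 to 25.96 for HG, 17.7 to 18.1 for si-FGF9 and 22.5 to 24.7 for HG+OE-FGF9. Its log2 fold change in si-FGF9 was -0.56 (SE 0.14, adjusted p = 0.00315), under the fold required, and turns to 0.90 (adjusted p = 0.000471) after removal of the GC trend. GINS4 was low throughout, at 1.69 to 4.39 for NG, 1.28 to 1.95 for HG, 0.66 to 1.69 for si-FGF9 and 1.07 to 3.68 for HG+OE-FGF9. The 4 GINS proteins also form 1 complex, and the ratio of GINS1 to GINS2 was 3.98 to 4.9 for NG, 1.36 to 3.32 for HG, 1.71 to 2.41 for si-FGF9 and 1.48 to 1.78 for HG+OE-FGF9. The difference between their log2 fold changes in si-FGF9 went from -0.99 to -0.24 after removal of the GC trend, their GC contents being 41.4% and 49.1%.

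Among the polymerases, POLD1 (ENSG00000062822), the catalytic subunit of polymerase delta, was higher outside NG. Its TPM was 12.7, 13.1 and 15.8 for NG, 27.8, 37.1 and 25.02 for HG, 52.02, 33.02 and 67.1 for si-FGF9 and 34.1, 31.8 and 33.5 for HG+OE-FGF9. No library of another group reached down to the NG values, although the si-FGF9 libraries were far apart from each other. The log2 fold change was 1.04 (SE 0.23, adjusted p = 0.00377) in HG and 1.75 (SE 0.23, adjusted p = 4.21e-05) in si-FGF9 versus NG, and that in HG is under the fold required without NG replicate 1 (0.99) or HG replicate 2 (0.89). After removal of the GC trend POLD1 did not pass in HG, at 0.70, and passed in si-FGF9, at 1.44. POLA1 and PRIM1 encode the catalytic subunit of polymerase alpha and the small primase subunit, which start each new strand, and both were lower in si-FGF9. PRIM1 had TPM of 26.6, 20.4 and 19.4 for NG, 15.1, 8.04 and 10.3 for HG, 7.45, 7.19 and 6.62 for si-FGF9 and 8.5, 10.4 and 13.9 for HG+OE-FGF9, with log2 fold changes of -1.505 (SE 0.23, adjusted p = 0.000122) against NG for si-FGF9, which turns to 0.012 after removal of the GC trend, and -0.96 (SE 0.23, adjusted p = 0.00601) for HG. POLE, the catalytic subunit of polymerase epsilon, had TPM of 21.1, 17.8 and 21.5 for NG, 23.6, 27.5 and 17.1 for HG, 12.2, 11.1 and 17.3 for si-FGF9 and 12.1, 13.7 and 21.3 for HG+OE-FGF9 and passed in none of the 3 comparisons. The ratio of POLA1 to POLD1 was 0.543 to 0.804 for NG, 0.11 to 0.362 for HG, 0.0308 to 0.0978 for si-FGF9 and 0.0741 to 0.168 for HG+OE-FGF9. These transcripts have a GC content of 42.9% and 65.0%, and the difference between their log2 fold changes in si-FGF9 went from -3.12 to -1.53 after removal of the GC trend.

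On the TPM as deposited, the clamp loader held the gene that differed most from NG in HG and in si-FGF9. In each of the 4 rescalings described below another member differed more in si-FGF9. After scaling by the median of ratios POLD1 was at 2.73 there and RFC1 at -1.85. RFC1 (ENSG00000035928), the large subunit that is particular to the replicative loader, had TPM of 32.2, 30.5 and 24.6 for NG, 6.14, 3.98 and 10.4 for HG, 4.09, 3.65 and 2.6 for si-FGF9 and 4.57, 2.93 and 6.08 for HG+OE-FGF9. The NG values were above all the others, and HG replicate 3 was the highest of the rest. The log2 fold change was -2.02 (SE 0.30, adjusted p = 0.000844) in HG and -2.77 (SE 0.30, adjusted p = 1.44e-05) in si-FGF9 versus NG, and -0.46 (SE 0.30, adjusted p = 0.328) in HG+OE-FGF9 versus HG. Of the 4 small subunits, which other loaders use as well, RFC3, RFC4 and RFC5 were lower in si-FGF9, at -1.98, -1.54 and -1.45, and RFC2 was not. After removal of the GC trend RFC3, RFC4 and RFC5 did not pass, at -0.36, -0.55 and -0.35, nor did RFC2, at 0.79. The GC contents of RFC3, RFC4 and RFC5 are 39.1%, 45.4% and 44.5%. RFC2 TPM was 45.5, 36.8 and 39.4 for NG, 52.9, 60.7 and 50.8 for HG, 50.1, 47.2 and 57.6 for si-FGF9 and 54.6, 54.3 and 59.1 for HG+OE-FGF9, so that all 9 libraries outside NG were above the NG values. The ratio of RFC1 to RFC2 was 0.709, 0.83 and 0.625 for NG, 0.116, 0.0656 and 0.205 for HG, 0.0817, 0.0772 and 0.0452 for si-FGF9 and 0.0837, 0.0539 and 0.103 for HG+OE-FGF9. Their GC contents are 41.7% and 53.6%, and the difference between their log2 fold changes in si-FGF9 went from -3.11 to -2.13 after removal of the GC trend.

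PCNA, the clamp, had TPM of 135, 114 and 119 for NG, 186, 125 and 117 for HG, 49.2, 57.8 and 60.3 for si-FGF9 and 122, 122 and 189.6 for HG+OE-FGF9. The si-FGF9 libraries were below all the others, at -1.13 (SE 0.21, adjusted p = 0.000442) from NG and -1.32 (SE 0.21, adjusted p = 0.00249) from HG, and 1 library of HG and 1 of HG+OE-FGF9 lay far above the rest of their groups. After scaling by the median of ratios the difference of si-FGF9 from NG was -0.10.

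RPA1, RPA2 and RPA3 encode the 3 subunits of RPA, which coats single-stranded DNA, and of these RPA1 passed as lower in si-FGF9 and the other two did not pass. RPA1 (ENSG00000132383), the large subunit that binds most of the DNA, had TPM of 68.1, 51.99 and 52.9 for NG, 45.8, 25.1 and 36.96 for HG, 9.57, 10.8 and 9.74 for si-FGF9 and 19.1, 19.9 and 44.7 for HG+OE-FGF9. The si-FGF9 values were below every other library, with a log2 fold change of -2.40 (SE 0.30, adjusted p = 2.93e-05) from NG and -1.70 (SE 0.30, adjusted p = 0.00331) from HG. RPA3 (ENSG00000106399), the smallest subunit, had TPM of 71.99, 76.4 and 75.8 for NG, 94.9, 83.8 and 62.9 for HG, 129, 129 and 121 for si-FGF9 and 98.01, 102 and 124 for HG+OE-FGF9. Its si-FGF9 values were above all those of NG and HG, at 0.75 (SE 0.15, adjusted p = 0.000962) from NG, under the fold required. RPA2 had TPM of 49.4, 46.6 and 44.9 for NG, 59.5, 50.0 and 43.3 for HG, 25.4, 28.3 and 33.9 for si-FGF9 and 49.6, 51.8 and 64.98 for HG+OE-FGF9, with a log2 fold change of -0.68 (SE 0.17, adjusted p = 0.00282) in si-FGF9, which turns to 0.09 after removal of the GC trend. The ratio of RPA1 to RPA3 was 0.947, 0.681 and 0.698 for NG, 0.483, 0.299 and 0.588 for HG, 0.0744, 0.0841 and 0.0803 for si-FGF9 and 0.194, 0.194 and 0.361 for HG+OE-FGF9. The GC contents of these 2 transcripts are close, at 48.2% and 45.9%, and their lengths are 4340 and 2020 bases. The difference between their log2 fold changes in si-FGF9 was -3.15, and -3.34 after removal of the GC trend.

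**Figure D3:**
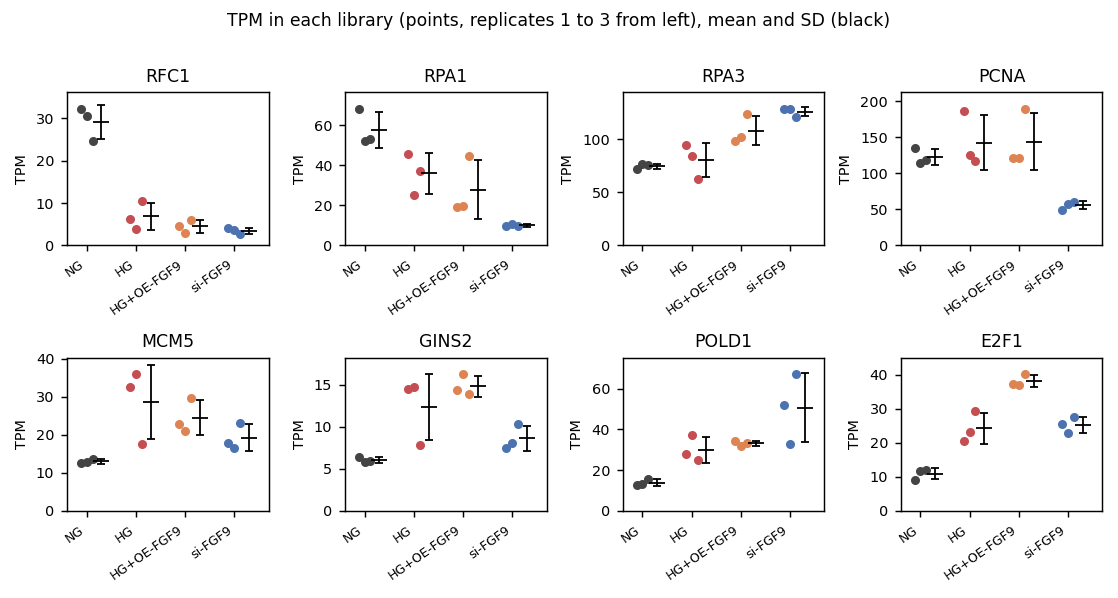
TPM of 8 genes in each library (points, replicates 1 to 3 from left to right), with the mean and SD of the 3 libraries in black. RFC1 and RPA1 are highest in NG and lowest in si-FGF9, RPA3 is highest in si-FGF9, E2F1 is highest in HG+OE-FGF9, PCNA is lowest in si-FGF9, and MCM5, GINS2 and POLD1 are lowest in NG. HG+OE-FGF9 replicate 3 stands above its group for RPA1, PCNA and MCM5.

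FEN1 and LIG1, the nuclease and the ligase that finish Okazaki fragments, passed in none of the 3 comparisons. LIG1 TPM was 11.4, 11.8 and 12.2 for NG, 21.9, 27.4 and 13.3 for HG, 19.5, 16.3 and 16.8 for si-FGF9 and 17.3, 15.9 and 20.7 for HG+OE-FGF9, with all 9 libraries outside NG above the NG values, with 0.72 (SE 0.22, adjusted p = 0.0185) in HG. FEN1 TPM was 21.6, 18.7 and 18.6 for NG, 36.2, 28.5 and 15.8 for HG, 10.1, 10.2 and 17.7 for si-FGF9 and 26.5, 25.5 and 38.4 for HG+OE-FGF9, and the si-FGF9 values lay below NG without passing, at -0.64 (SE 0.29, adjusted p = 0.0714).

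The 3 genes of deoxynucleotide supply, the ribonucleotide reductase subunits RRM1 and RRM2 and the thymidylate synthase TYMS, were all lower in si-FGF9 than in NG, where 42.2% of all genes were. None of the 3 passed after removal of the GC trend, at -0.26, -0.72 and -0.71, or after scaling by the median of ratios, at -0.48, -0.67 and -0.35. RRM2 TPM was 65.6, 58.4 and 63.6 for NG, 26.3, 17.4 and 57.8 for HG, 19.2, 19.1 and 18.4 for si-FGF9 and 20.9, 23.4 and 41.5 for HG+OE-FGF9. HG replicate 3 lay just under NG while the other HG libraries were near si-FGF9, and the log2 fold change was -1.67 (SE 0.35, adjusted p = 0.00107) in si-FGF9 and -1.04 (SE 0.35, adjusted p = 0.0286) in HG, which passes without HG replicate 3. TYMS TPM was 140.0, 119.7 and 115 for NG, 143, 115 and 94.2 for HG, 45.2, 45.8 and 51.2 for si-FGF9 and 67.8, 68.4 and 149 for HG+OE-FGF9. The si-FGF9 values were below all other libraries, at -1.38 (SE 0.27, adjusted p = 0.000578) from NG, and TYMS exons share 39.1% of their bases with ENOSF1 on the opposite strand. RRM2 exons share 20.2% with AC007240.1 on the same strand, a gene without values in the expression table. Of the 7 members that share 10% or more with another gene, PRIM1 also does so on the same strand, at 14.9% with AC117378.1. RRM1 was lower in si-FGF9, at -1.48 (SE 0.25, adjusted p = 0.000255).

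UHRF1, which brings the maintenance DNA methyltransferase to newly copied DNA, and SLBP, which binds the stem-loop at the end of histone mRNAs, were both lower in si-FGF9. UHRF1 TPM was 13.1, 13.7 and 13.1 for NG, 11.2, 8.22 and 9.13 for HG, 3.09, 3.18 and 3.26 for si-FGF9 and 4.94, 5.29 and 11.2 for HG+OE-FGF9. The si-FGF9 values, which differed little among themselves, were below all others, at -1.77 (SE 0.25, adjusted p = 5.66e-05) from NG and -1.32 (SE 0.25, adjusted p = 0.00399) from HG. SLBP was lower in si-FGF9, at -1.43 (SE 0.27, adjusted p = 0.00047), from 82.5, 65.4 and 67.1 TPM for NG to 24.1, 28.9 and 24.6.

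Which of these differences hold depends on the scale, so that 4 rescalings were compared with the TPM as deposited, namely median-of-ratios scaling, quantile normalization, removal of the trend of each library with GC content, and removal of the trends with GC content and length together. In si-FGF9 versus NG, 2 of the 20 lower genes, RFC1 and RPA1, passed as lower in all 4, where 5.66% of all genes were lower in all 4. Their log2 fold changes over the 4 were -1.88 to -1.16 and -1.67 to -1.31. Higher in all 4 were GINS2, RPA3, POLD1 and E2F1, that is both genes that passed on the TPM as deposited and 2 that had not, where 5.52% of all genes were. Over the 4 rescalings POLD1 was higher by 1.44 to 2.73, E2F1 by 1.02 to 2.11, RPA3 by 1.10 to 1.77 and GINS2 by 1.14 to 1.47. In HG versus NG, 0 genes were lower in all 4 by limma, where 1.34% of all genes were, and RFC1 was lower in 3 of them, at -0.97 in the fourth. MCM5 and GINS2 were higher in all 4, where 1.02% of all genes were, by 1.02 to 1.61 and 1.23 to 1.44.

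**Figure D4:**
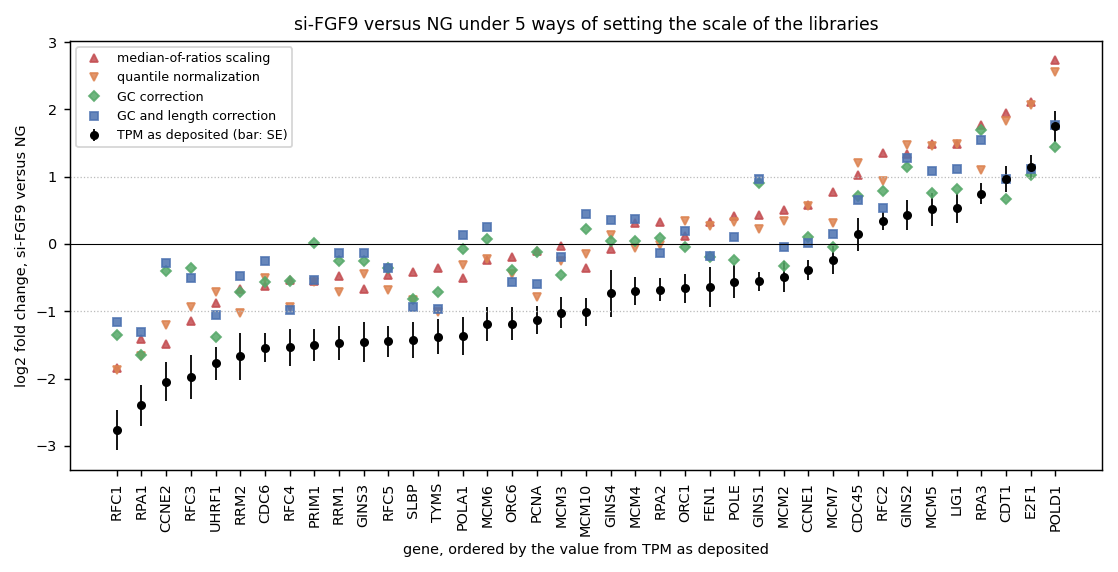
Log2 fold change of each gene in si-FGF9 versus NG from the TPM as deposited (black, with the SE) and after the 4 rescalings (coloured), with genes ordered by the black value. All coloured points of RFC1 and RPA1 lie below -1 and those of GINS2, RPA3, POLD1 and E2F1 above 1, while all 4 coloured points lie between -1 and 0 for 9 of the 20 genes that are lower in black, and at least 1 lies above 0 for 4 of them, MCM6, MCM10, POLA1 and PRIM1.

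The members' differences varied with the GC content of their transcripts. Their GC content ranged from 36.9% to 65.0% with a median of 48.2%, close to the 48.3% of all genes tested. Across the 39 genes, which share the same libraries, Spearman's rho of the log2 fold change with GC content was 0.77 in HG versus NG and 0.69 in si-FGF9 versus NG, and over the 14191 genes with a GC content it was 0.64 and 0.57. The 20 genes lower in si-FGF9 had a GC content of 36.9% to 54.6%, and the 2 higher ones, E2F1 and POLD1, of 62.5% and 65.0%. The 19 members with the lowest GC content had medians of -1.45 (si-FGF9 versus NG) and -0.48 (HG versus NG) on the log2 scale, beside -1.37 and -0.87 over all genes in their GC range. The 20 others had -0.43 and 0.32, beside -0.30 and -0.03. After removal of the GC trend, 3 members were lower in si-FGF9 (RFC1, RPA1 and UHRF1), where 12% of all genes were, and 4 higher (GINS2, RPA3, POLD1 and E2F1), where 12.3% were. In HG 1 was lower, RFC1, and 2 higher, MCM5 and GINS2, where 3.06% and 3.78% were. The sign of the log2 fold change turned with this correction for 8 of the 39 genes in si-FGF9 versus NG and 12 in HG versus NG. The cause of the trend was not tested.

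**Figure D5:**
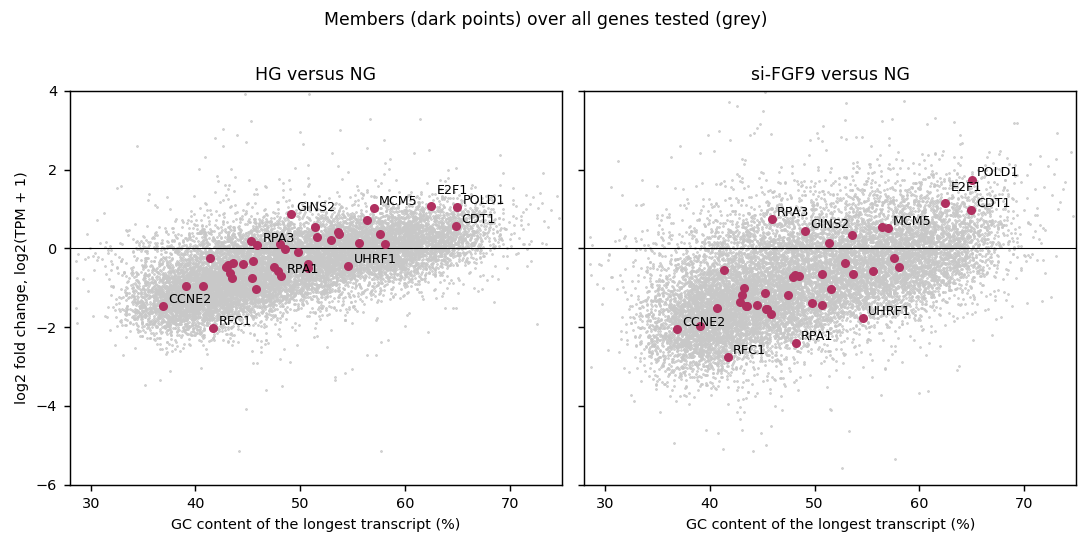
Log2 fold change against the GC content of the longest annotated transcript for the 39 genes (dark points) and all genes tested (grey), in HG versus NG (left) and si-FGF9 versus NG (right). Dark and grey points both run from the lower left to the upper right, and RFC1 and RPA1 lie low and RPA3 and GINS2 high among the genes of similar GC content in the right panel.

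The groups of high glucose can also be set against NG and si-FGF9, in comparisons that share libraries with those above. In HG+OE-FGF9 versus NG, 6 of the 39 genes were lower, where 32.7% of all genes were, and 4 higher, where 7.01% were. The lower ones were RFC1, CCNE2, RRM2, RFC3, RPA1 and POLA1, and the higher ones E2F1, GINS2, POLD1 and CDC45. E2F1 was higher by 1.73 (SE 0.17, adjusted p = 2.41e-05) and CDC45 by 1.10 (SE 0.25, adjusted p = 0.00219). Without HG+OE-FGF9 replicate 3, the library that stands apart, 11 genes were lower, where 37.2% of all genes were. There were 2 without NG replicate 1 (30.6% of all genes) or HG+OE-FGF9 replicate 1 (30.4%), and 3 without HG+OE-FGF9 replicate 2 (30.4%). In si-FGF9 versus HG, 9 genes were lower, where 9.67% of all genes were, and 0 higher by limma, where 1.4% were. These were RPA1, UHRF1, PCNA, MCM3, TYMS, CDC6, GINS3, RFC5 and RFC3. Without HG replicate 2 there were 14, where 16.2% of all genes were lower. E2F1 did not pass there, at 0.07 (SE 0.17, adjusted p = 0.777).

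Other genes of the same pathway were counted in 3 lists. Of 18 further genes of licensing and origin firing, 16 were lower and 1 higher in si-FGF9 versus NG, where 42.2% and 5.36% of all genes were. In HG versus NG 6 were lower and 1 higher, where 22.7% and 1.65% were, and 0 passed in HG+OE-FGF9 versus HG in limma. Their medians were -1.60, -0.92 and -0.41, and after removal of the GC trend 2 were lower and 1 higher in si-FGF9, where 12% and 12.3% of all genes were. ORC4, a subunit of the origin recognition complex, had the lowest value, at -2.45 (SE 0.28, adjusted p = 0.000435) in HG and -3.505 (SE 0.28, adjusted p = 5.48e-06) in si-FGF9. RECQL4, a helicase that takes part in origin firing, was the one higher gene, at 1.20 (SE 0.18, adjusted p = 0.000869) and 1.58 (SE 0.18, adjusted p = 1.84e-05).

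Of 23 further genes of the replication fork, 7 were lower and 5 higher in si-FGF9 versus NG, against 42.2% and 5.36% of all genes, 3 lower and 1 higher in HG versus NG, against 22.7% and 1.65%, and 0 passed in HG+OE-FGF9 versus HG in limma. On the TPM as deposited, in si-FGF9 the histone chaperone ASF1A and the nuclease DNA2 were the lowest, at -2.31 and -1.88, and RNASEH2C, a subunit of the enzyme that removes RNA from DNA, and POLE4, a small subunit of polymerase epsilon, the highest, at 1.85 and 1.74. After removal of the GC trend 1 was lower and 6 higher in si-FGF9, against 12% and 12.3% of all genes. The lower one was CHAF1A, a subunit of a chaperone that deposits histones on new DNA, at -1.27, while ASF1A and DNA2 did not pass, at -0.70 and -0.22. POLE4 TPM was 70.5, 73.5 and 67.7 for NG, 147, 176 and 99.4 for HG, 243, 230.0 and 239.7 for si-FGF9 and 239, 243 and 171 for HG+OE-FGF9. It was higher outside NG in all 9 libraries, as RFC2, RECQL4 and POLD1 were.

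Of 25 genes of G1/S control, 23 were tested, and 13 were lower and 0 higher in si-FGF9 versus NG in limma, beside 42.2% and 5.36% of all genes. In HG versus NG 10 were lower and 0 higher in limma, beside 22.7% and 1.65%, and in HG+OE-FGF9 versus HG 0 were lower and 1 higher, beside 2.67% and 2.94%. The pocket proteins RB1 and RBL2, which hold E2F factors in check, were among the lowest. RB1 TPM was 24.6, 26.5 and 22.4 for NG, 5.86, 2.61 and 10.9 for HG, 1.61, 3.01 and 1.11 for si-FGF9 and 2.06, 2.09 and 5.29 for HG+OE-FGF9, at -1.93 (SE 0.41, adjusted p = 0.00309) in HG and -3.18 (SE 0.41, adjusted p = 3.56e-05) in si-FGF9, and RBL2 was at -2.38 and -3.84. CDK2, the partner of cyclin E, had TPM of 61.96, 64.8 and 60.9 for NG, 29.9, 18.5 and 42.1 for HG, 8.51, 11.7 and 6.81 for si-FGF9 and 17.6, 16.1 and 37.4 for HG+OE-FGF9, at -2.70 (SE 0.33, adjusted p = 2.67e-05) in si-FGF9. Of the other E2F genes, E2F3, E2F5, E2F6 and E2F4 were lower in si-FGF9, at -2.12, -2.97, -1.55 and -1.25, where E2F1 was higher. After removal of the GC trend 7 of the 23 genes were lower in si-FGF9, beside 12% of all genes, and RB1, RBL2, CDK2, E2F3, E2F4 and E2F5 were among them. CDKN1A, the CDK inhibitor p21, was the 1 gene that rose from HG to HG+OE-FGF9. Its TPM was 39.9, 45 and 44.1 for NG, 16.6, 18.3 and 35.2 for HG, 32.3, 38.04 and 36.99 for si-FGF9 and 68.7, 69.7 and 56.6 for HG+OE-FGF9, where HG replicate 3 again lay nearer to NG, and the log2 fold change was 1.51 (SE 0.23, adjusted p = 0.00286). CCND1 and CDK4, the cyclin D1 and kinase pair that acts before cyclin E, passed in none of the 3 comparisons. Of the other D-type cyclins and kinase, CCND2 and CDK6 were lower in HG versus NG, at -1.14 and -1.57, and CCND3 did not pass, at 0.56. After removal of the GC trend CCND2 and CDK6 did not pass there, at -0.56 and -0.51. Their mean TPM was 15.2 and 24.0 in NG and 4.93 and 5.10 in si-FGF9.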

How the data were processed

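RNA of 12 HK2 libraries was analysed from the expression table the authors deposited, as TPM for each Ensembl gene, given to 2 decimals. The 12 single-library files held the same values as this table. The submitters' processing notes name Bowtie 0.12.2 and the mouse build mm8, which does not match human identifiers, and the quantification tool and the annotation are not given in the sources used here. Depth is therefore unknown, and no counting error could be computed, and how reads shared with pseudogenes were assigned is not given in the sources used here.

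Symbols came from a separate list of gene names, which matched 62625 of the 62703 identifiers. GC content and length of the longest transcript came from GENCODE release 29 (GRCh38), which gave a GC content for 96.9% of the genes tested. Genes that reached a TPM of 1 in no fewer than 3 libraries entered limma 3.58.1 (R 4.3.3), run on log2(TPM + 1) with a variance trend and only the group as a term, over all 12 libraries at once. Fold changes on this scale understate those of low genes. Called genes met the study's threshold, a log2 fold change of 1 or more either way with unadjusted p < 0.01, and p-values were adjusted by the Benjamini-Hochberg method. With 3 libraries against 3 an exact permutation test cannot go below 0.1. Alternatives were no filter, a stricter filter, the 6 libraries of a comparison alone, a replicate block, a pseudocount of 0.1, adjusted p, 2 other scalings, a spline on GC content with 5 degrees of freedom, no variance trend and each library left out in turn. A correction for GC content and length together was added after seeing the data.

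The members and the lists were chosen with earlier results of these data known. Any member could be named. Values of every library are given for the called gene of each role with the largest change and for genes called in none of the 3 comparisons of the study, together with further members where their values bear on those. GINS1 and GINS4, also called in none, are given as ranges only. Any gene of the G1/S control list could be named, and of the other pathway lists the 2 called genes with the largest change in each direction, with POLE4 also shown by library. CHAF1A, CENPF and the marker genes were named after their values were seen.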

Additional observations from a re-analysis of the deposited data

How the results depend on the processing

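The number of members lower and higher moved with the scale of the libraries, and the cause was not tested. In HG versus NG 2 were lower and 3 higher. This became 2 and 6 with the median of ratios and 1 and 7 with quantile normalization (8.33% and 6.94% of all genes). With the GC correction, alone and with a replicate block, it became 1 and 2. With the GC and length correction it became 0 and 2 (2.45% and 2.83% of all genes). Where every library had to reach a TPM of 1, which leaves fewer genes, 1 was lower (22% of all genes). By adjusted p with no minimum fold it became 8 and 7 (40.5% and 8.53%). In si-FGF9 versus NG 20 and 2 became 4 and 9, 5 and 8 (17.1% and 16.2% of all genes), 3 and 4 (alone and with the block) and 3 and 6 (9.39% and 10.5%), listed by setting as before, with 25 and 6 by adjusted p (57.7% and 11.6%). For HG+OE-FGF9 against HG the 0 higher became 1 by adjusted p (4.82%). For HG+OE-FGF9 against NG 6 and 4 became 2 and 11 (17.6% and 16.9% of all genes), 2 and 8 (17.3% and 15.6%), 1 and 5 (11.8% and 11.3%), 1 and 6 (9.34% and 9.51%), and 13 and 10 by adjusted p (48.5% and 16.4%). In si-FGF9 versus HG 9 and 0 became 1 and 2 (2.28% and 5.7%), 3 and 0 (2.37% and 3.62%), 2 and 1 (2.52% and 3.34%), 3 and 1 (2.37% and 3.07%), and 21 and 2 by adjusted p (28.1% and 4.75%). The members' median log2 fold change turned from -0.23 to 0.26, 0.24, 0.275 (both GC fits) and 0.37 in HG versus NG, from -0.07 to 0.071, 0.039 (both GC fits) and 0.080 in HG+OE-FGF9 versus HG by the median of ratios and the GC fits, and from -0.38 to 0.25, 0.23, 0.25 and 0.30 in HG+OE-FGF9 versus NG. It shrank to -0.074, -0.151, -0.083 (both GC fits) and -0.054 in si-FGF9 versus NG and to -0.22, -0.31, -0.29 and -0.21 in si-FGF9 versus HG. Of the genes called in si-FGF9 versus NG, the sign turned with the GC correction, with and without the block, for MCM6 (0.07), MCM10 (0.22) and PRIM1 (0.012), and with GC and length for MCM6 (0.25), MCM10 (0.45) and POLA1 (0.14). Of those not called it turned with the GC correction for GINS1 (-0.56 to 0.90), MCM4 (-0.69 to 0.04), GINS4 (-0.73 to 0.04), RPA2 (-0.68 to 0.09) and CCNE1 (-0.38 to 0.10).

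With single libraries left out, 2 to 4 members were lower in HG versus NG, where 14.5% to 28.7% of all genes were. The 4 were found without HG replicate 3, where the share was 28.7%. Higher there were 1 to 3 (1 without NG replicate 1 or HG replicate 2), where 0.858% to 3.89% of all genes were. In HG+OE-FGF9 versus NG 2 to 11 were lower (11 without HG+OE-FGF9 replicate 3), where 30.4% to 37.2% were. In si-FGF9 versus HG 7 to 14 were lower (14 without HG replicate 2), where 6.22% to 16.2% were. In si-FGF9 versus NG 18 to 20 were lower, where 40.5% to 42.4% were. The median in HG+OE-FGF9 versus HG ranged from -0.26 to 0.059, and was above 0 without HG+OE-FGF9 replicate 1 or 2 (0.014). No pairing by replicate number could be seen, since of 18 same-numbered pairs 3 had a correlation of deviations over 0.1, with a range of -0.44 to 0.25. Deviations from a mean of 3 libraries depend on each other. Whether same-numbered libraries were handled together therefore cannot be told from these values. With a replicate block 20 members were lower and 2 higher in si-FGF9 versus NG, where 42% and 5.31% of all genes were. In HG versus NG 3 and 3 were (22.4% and 1.63% of all genes), and in HG+OE-FGF9 versus HG 0 and 0 (2.51% and 2.91%). In HG+OE-FGF9 versus NG 6 and 4 were (32.6% and 6.87%), and in si-FGF9 versus HG 8 and 0 (9.23% and 1.32%). With 3 libraries a group and unknown depth, the counting error of members near 1 TPM, such as CCNE2 and GINS4, could not be given.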
